A study of Mus musculus with 2 samples.

Results

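The 38 genes described here encode the folding, disulfide-forming, degradation, translocation and stress-sensing machinery of the endoplasmic reticulum (ER). They were chosen by symbol from a list of named genes and matched to Ensembl identifiers of the deposited count table. All 38 were found among the 54532 gene identifiers, each under 1 identifier. All 38 also had a mean of at least 10 counts over the libraries, the minimum used below. They fall into 11 ER chaperones and co-factors, 7 disulfide enzymes, 11 genes of ER-associated degradation (ERAD), 4 translocon genes and 5 genes of the unfolded protein response (UPR) signal. The cells were primary CD8+ T cells from spleens of WT (wild-type) mice, which the labels also call ND mice without expanding the letters. They were kept for 8 h either in RPMI 1640 medium, called complete medium here, or in RPMI 1640 methionine (-) medium, called methionine-free. Each medium has 1 bulk RNA-seq library, so differences here cannot be set against the spread of replicates and carry no p-value. How many mice gave cells, whether the 2 cultures shared mice, how the cells were isolated and whether they had been activated are not stated by the labels.

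The ER is where secreted and membrane proteins enter through the Sec61 channel, fold with the help of the Hsp70 chaperone BiP and of lectin chaperones, and form disulfide bonds. Proteins that fail to fold are taken back to the cytosol and destroyed, which is ERAD. When unfolded proteins build up, the sensors IRE1, ATF6 and PERK raise transcription of chaperone and ERAD genes, which is the UPR. IRE1 does so by splicing the mRNA of the transcription factor XBP1. In CD8+ T cells the same machinery assembles MHC class I, the T cell receptor and secreted effector proteins, and activated cells are known to use the IRE1-XBP1 branch.

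The complete-medium library held 14646527 counts and the methionine-free library 19647681. Levels are in CPM, counts per 1000000 TMM-scaled counts, and a fold is the ratio of the scaled counts of the 2 libraries. The range in parentheses after a fold is the exact conditional 95% interval of the 2 counts. It reflects counting error alone; variation among cultures or mice is not in it. Calls rest on size, at 1.5-fold or more on the log2 scale with a prior count of 0.5. Where a pair of values is given, complete medium comes first. RPKM is the scaled count per kilobase of exon per 1000000. The defining markers of the labelled cell type were present: all 8 T cell receptor and CD8 genes listed had at least 1787 counts in each library, and Cd8a stood at 664 and 527 CPM. The 10 cell division genes listed as a check, Mki67 among them, were all over 2-fold lower without methionine, and their summed level went from 1878 to 96.1 CPM. In bulk RNA, fewer cells of a type and less RNA per cell cannot be told apart. The labels name a whole-RNA and an mRNA kit without saying which made which library, so a difference of kit and a difference of medium cannot be told apart.

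The ER genes differed by role. Without methionine, 17 of the 18 chaperone and disulfide enzyme genes stood below their level in complete medium, and the disulfide enzymes lay lowest as a group. ERAD genes were mixed, with 6 of 11 above their level in complete medium and 5 below, and the sensor genes Atf6, Atf6b and Ern1 lay above. For comparison, 47.6% of all genes tested stood below their level in complete medium and 52.4% above. The split of the ERAD genes was close to that. Of all 38, 9 were at least 1.5-fold lower and 2 at least 1.5-fold higher. Of all 13041 genes tested, 18.0% were at least 1.5-fold lower and 15.7% at least 1.5-fold higher. The members' shares were 23.7% and 5.26%. The share of lower members lay near that of all genes, and the share of higher members lay below it. The median log2 difference of the 38 genes, methionine-free minus complete, was -0.15, against 0.04 over all genes tested. At 2-fold, 1 member was higher and 1 lower, where 5.80% of all genes tested were higher and 9.29% lower. The differences in these genes were therefore mostly small. The counting interval lay wholly below a ratio of 1 for 21 members and wholly above it for 10, and for the other 7 it held 1. Among the 13041 genes tested, it lay wholly below 1 for 4107, wholly above for 4598, and held 1 for 4336. Intervals that leave out 1 were thus common among all genes. Together the 38 genes took 0.720% of all counts in complete medium and 0.563% without methionine.

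**Figure D1:**
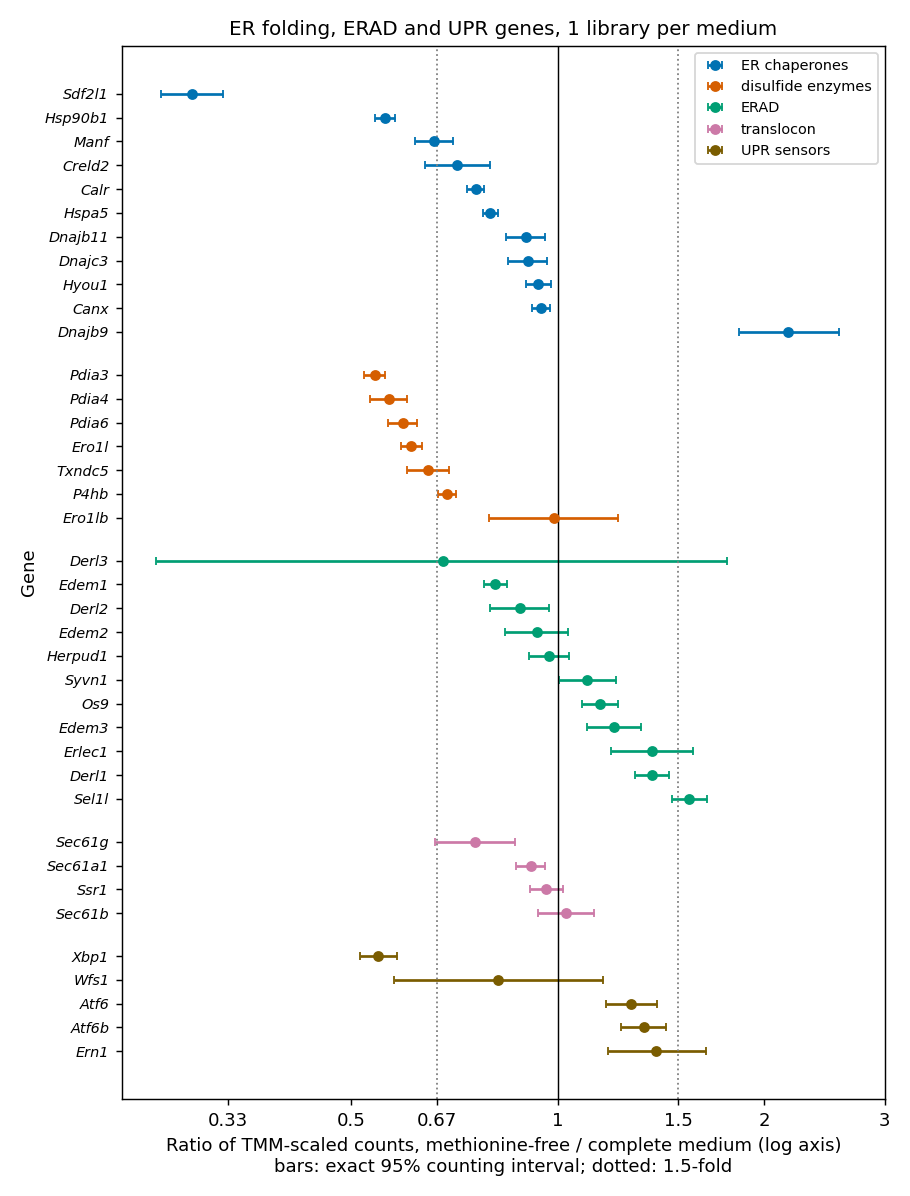
Ratio of TMM-scaled counts, methionine-free over complete medium, on a log axis for each of the 38 genes, 1 library per medium. Points are ratios, bars are exact 95% counting intervals, colours are roles and dotted lines mark 1.5-fold. Sdf2l1 stands farthest left at a ratio of 0.293 and Dnajb9 farthest right at 2.17, and the disulfide enzymes other than Ero1lb sit left of 1.

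Of the 11 chaperones and co-factors, 10 had a ratio below 1 and all 10 intervals lay below 1. At 1.5-fold, 3 were lower and 1 higher, with a median log2 difference of -0.33. That is 27.3% lower and 9.09% higher, beside 18.0% and 15.7% of all genes tested. The summed level of the 11 genes went from 3306 to 2560 CPM, 1.29-fold lower (1.28 to 1.31). Hspa5 encodes BiP, the central Hsp70 of the ER and the classic marker of the UPR (ENSMUSG00000026864, GRCm38 chromosome 2, 34771970 to 34777547, plus strand). It had 11629 and 12368 counts, or 792 and 631 CPM, 1.25-fold lower (1.22 to 1.29). Hsp90b1 encodes GRP94, the Hsp90 of the ER (chromosome 10, 86690209 to 86705509, minus strand). Its counts were 8488 and 6340, or 578 and 324 CPM, 1.79-fold lower (1.73 to 1.85). Both genes are highly counted in each library, so their intervals are narrow, and GRP94 differed more than BiP.

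The co-chaperones of BiP went opposite ways. Sdf2l1 encodes a small luminal protein that works with ER J-domain proteins and BiP (chromosome 16, 17130138 to 17132383, minus strand). It had 1291 and 504 counts, or 87.9 and 25.7 CPM, 3.42-fold lower (3.08 to 3.80). This was the widest difference among the 38 genes. Dnajb9 encodes ERdj4, a J-domain protein that acts with BiP and is a well-known XBP1 target (chromosome 12, 44205559 to 44210326, minus strand). Its counts were 191 and 553, or 13.0 and 28.2 CPM, 2.17-fold higher (1.84 to 2.57). Dnajb9 was the sole member at least 2-fold higher, and Sdf2l1 the sole member at least 2-fold lower. The other J-domain genes, Dnajb11 (ERdj3) and Dnajc3 (P58IPK), were 1.11-fold lower (1.04 to 1.19) and 1.11-fold lower (1.04 to 1.18). Hyou1, which encodes the nucleotide exchange chaperone GRP170, was at 279 and 262 CPM, close to level.

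The lectin chaperones also differed from one another. Calr encodes calreticulin, the soluble lectin chaperone, and went from 646 to 491 CPM, 1.32-fold lower (1.28 to 1.35). Canx encodes calnexin, its membrane-bound counterpart, and was at 490 and 464 CPM. Their intervals do not overlap, so Calr differed more than Canx in these 2 libraries. Manf and Creld2 encode small ER-stress-induced secreted proteins. Manf was 1.52-fold lower (1.42 to 1.61), from 141 to 93.3 CPM, and Creld2 1.40-fold lower (1.26 to 1.56), from 46.0 to 32.9 CPM. Manf lies barely past 1.5-fold, and its exons overlap those of Dcaf1 and Rbm15b. Dcaf1, on the opposite strand, had 2073 and 3525 counts, so the value for Manf is uncertain.

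The disulfide enzymes had the lowest median of the 5 roles. Of 7 genes, 5 were at least 1.5-fold lower, none was higher, and the median log2 difference was -0.71. That is 71.4% lower and 0% higher, beside 18.0% and 15.7% of all genes tested. None of the 7 reached 2-fold. The summed level of the 7 genes went from 2080 to 1276 CPM, 1.63-fold lower (1.60 to 1.66). Pdia3 encodes ERp57, the isomerase that works with calnexin and calreticulin, and was 1.85-fold lower (1.79 to 1.92), with 7386 and 5327 counts. Pdia4 (ERp72) had 2408 and 1821 counts and Pdia6 (P5) 3528 and 2795. Pdia4 was thus 1.76-fold lower (1.66 to 1.88) and Pdia6 1.68-fold lower (1.60 to 1.77). P4hb, which encodes protein disulfide isomerase itself, went from 564 to 389 CPM, 1.45-fold lower (1.41 to 1.497), just outside the threshold. Txndc5 (ERp46) was just inside it at 1.55-fold lower (1.44 to 1.66), from 117 to 75.9 CPM. These 5 isomerases thus stood within a narrow band of 1.45-fold to 1.85-fold.

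The ER oxidases re-oxidise the isomerases, and the pair present here differed. Ero1l, the widely expressed oxidase gene and also a known hypoxia-responsive gene, had 7056 and 5756 counts, 1.64-fold lower (1.58 to 1.69). Its paralog Ero1lb had 152 and 200 counts, a ratio of 0.986 (0.795 to 1.23). Per length of exon, Ero1l stood at 90.9 and 55.6 RPKM and Ero1lb at 1.56 and 1.53 RPKM, so the paralog that was close to level is the scarce one.

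**Figure D2:**
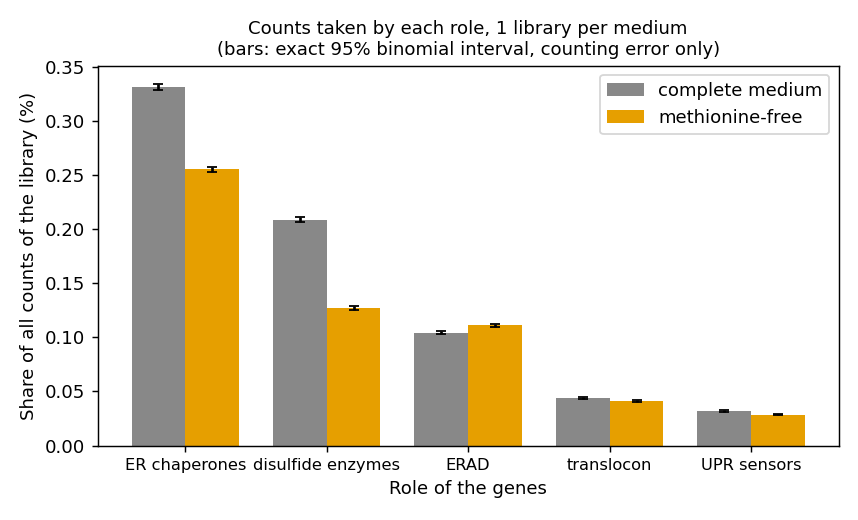
Share of all counts of a library, in percent, taken by the genes of each role, for complete medium (grey) and methionine-free medium (orange), 1 library each; error bars are exact 95% binomial intervals. The chaperones went from 0.331% to 0.255% and the disulfide enzymes from 0.209% to 0.127%, while ERAD genes took 0.104% and 0.111%.

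Many of the chaperone promoters share a sequence feature that the choice of genes by name did not use, although several are textbook examples of it. The ER stress response element, ERSE, is the site that ATF6 and spliced XBP1 are known to bind together with NF-Y. It reads CCAAT, then any 9 bases, then CCACG. It was searched on both strands in RefSeq promoter windows of 300 bases (GRCm38.p6), from 250 bases before to 50 after the start of transcription. Of the 38 genes, 32 had a window, and 10 of these held at least 1 match. Among all 27025 genes with a window, 37 held one, or 0.137%. The matches are printed because 6 of these 10 genes are chaperones or co-factors. Each is read from CCAAT to CCACG whichever strand it lies on, with the fixed letters in capitals, and the coordinates are those of GRCm38:
Hspa5 (chr2:34772025-34772043, plus-strand gene, 65 bases before the start): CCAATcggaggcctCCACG
Hsp90b1 (chr10:86705638-86705656, minus-strand gene, 212 bases before the start): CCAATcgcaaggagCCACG
Hsp90b1 (chr10:86705533-86705551, minus-strand gene, 107 bases before the start): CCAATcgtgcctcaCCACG
Calr (chr8:84847075-84847093, minus-strand gene, 162 bases before the start): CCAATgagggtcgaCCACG
Canx (chr11:50325800-50325818, minus-strand gene, 145 bases before the start): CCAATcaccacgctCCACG
Dnajc3 (chr14:118937827-118937845, plus-strand gene, 105 bases before the start): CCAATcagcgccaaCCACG
Creld2 (chr15:88819520-88819538, plus-strand gene, 126 bases before the start): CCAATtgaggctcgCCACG
Pdia6 (chr12:17266491-17266509, plus-strand gene, 98 bases before the start): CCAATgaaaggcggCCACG
Ero1lb (chr13:12565682-12565700, plus-strand gene, 201 bases before the start): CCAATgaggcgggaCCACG
Syvn1 (chr19:6046532-6046550, plus-strand gene, 44 bases before the start): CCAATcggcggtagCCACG
Derl3 (chr10:75893242-75893260, plus-strand gene, 156 bases before the start): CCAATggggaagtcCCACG

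ERSE was found in 6 of the 9 chaperone genes with a window, in 2 of 7 disulfide enzyme genes, in 2 of 9 ERAD genes, and in none of the 3 translocon and 4 UPR signal genes with a window. Hsp90b1 held 2 matches. Of the 10 genes with ERSE, 9 had a ratio below 1, 2 were at least 1.5-fold lower and none was at least 1.5-fold higher, with a median log2 difference of -0.36. Of the 22 members with a window and no match, 15 had a ratio below 1, 6 were at least 1.5-fold lower and 2 higher, with a median of -0.17. The median was thus lower with ERSE, while the share called lower was larger without it. Over all genes tested, 47.6% had a ratio below 1, 18.0% were at least 1.5-fold lower and 15.7% higher. Most genes with ERSE are chaperone or disulfide enzyme genes, so element and role cannot be told apart here. The members farthest from 1, Sdf2l1 and Dnajb9, are both among those without a match. The related element ERSE-II, which reads ATTGG, any 1 base, then CCACG, was found in Dnajb11 and Herpud1, and in 0.0444% of all genes. Neither held an ERSE match, so both are among the 22 members above. The 12 members with either element had a median log2 difference of -0.24, and 2 of them were at least 1.5-fold lower. The XBP1 core TGACGTGG occurred in 1 member, Txndc5, before one of its alternative starts (0.714% of all genes), and TGATGNAA, a form of the element bound by ATF4 with C/EBP proteins, in Txndc5 and Herpud1 (4.51% of all genes). A match is a run of letters, not a bound site. The absence of one says that these letters are not in this window.

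For the members that mark the ends of the range and for the 2 large chaperone genes, the 150 bases before the start are given 5′ to 3′ on the strand of the gene, with ERSE letters in capitals. In Hsp90b1 the match lies on the opposite strand, so its letters read CGTGG and ATTGG, and its other match lies farther out:
Hspa5 (chr2:34771940-34772089, plus strand): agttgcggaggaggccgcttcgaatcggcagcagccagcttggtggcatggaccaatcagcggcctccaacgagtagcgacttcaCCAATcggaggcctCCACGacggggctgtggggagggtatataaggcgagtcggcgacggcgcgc
Hsp90b1 (chr10:86705445-86705594, minus strand): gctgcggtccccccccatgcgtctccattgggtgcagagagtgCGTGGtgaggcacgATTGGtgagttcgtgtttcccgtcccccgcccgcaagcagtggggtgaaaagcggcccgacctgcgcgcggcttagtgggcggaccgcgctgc
Sdf2l1 (chr16:17132384-17132533, minus strand): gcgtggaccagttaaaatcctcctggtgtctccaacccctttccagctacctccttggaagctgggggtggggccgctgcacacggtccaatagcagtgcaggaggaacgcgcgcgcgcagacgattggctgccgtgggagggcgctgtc
Dnajb9 (chr12:44210069-44210218, minus strand): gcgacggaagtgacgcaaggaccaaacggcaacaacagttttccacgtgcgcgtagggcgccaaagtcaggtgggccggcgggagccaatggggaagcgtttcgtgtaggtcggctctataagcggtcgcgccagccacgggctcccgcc

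ERAD genes lay higher than chaperones by their median. Of 11, 1 was at least 1.5-fold higher and none lower, 6 had a ratio above 1, and the median log2 difference was 0.14. That is 9.09% higher, as among the chaperones, and 0% lower, beside 15.7% and 18.0% of all genes tested. The share above 1 was 54.5%, near the 52.4% of all genes tested. The summed level of the 11 genes was 1041 and 1114 CPM, 1.07-fold higher (1.05 to 1.09). Sel1l encodes the adaptor that holds the ubiquitin ligase HRD1 in its membrane complex (chromosome 12, 91806043 to 91849157, minus strand). It had 1675 and 3475 counts, or 114 and 177 CPM, 1.55-fold higher (1.47 to 1.65). Syvn1, the gene of HRD1 itself, was at 49.4 and 54.6 CPM, 1.10-fold higher (1.004 to 1.22). Its exons overlap those of Mrpl49 on the opposite strand, with 782 and 760 counts, so it is uncertain. By these values the adaptor differed more than the ligase within this complex, but the overlap leaves that comparison uncertain too.

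The Derlins form the membrane channel of ERAD, and the 3 genes differed. Derl1 was 1.37-fold higher (1.30 to 1.46), from 126 to 174 CPM, while Derl2 was 1.14-fold lower (1.03 to 1.25), from 51.7 to 45.5 CPM. Exons of Derl2 overlap Mis12 on the opposite strand, with 690 and 873 counts, so its value is uncertain. Derl3, a form abundant in secretory cells, had 11 and 10 counts, too few to show a difference. The lectins Os9 and Erlec1, which hand glycoproteins to the ligase, were 1.15-fold higher (1.08 to 1.23) and 1.37-fold higher (1.20 to 1.57). Of the mannosidase-like genes that mark glycoproteins for ERAD, Edem1 was 1.23-fold lower (1.19 to 1.28), from 358 to 291 CPM, and Edem3 1.21-fold higher (1.10 to 1.32), from 52.1 to 62.9 CPM. Edem2, at 43.1 and 40.2 CPM, had an interval that held 1. So did Herpud1, an early UPR target that joins the ligase complex, at 105 and 102 CPM. Per length of exon, Edem1 was the most abundant of the 3 in both libraries, at 55.5 and 45.0 RPKM, and it lay on the lower side.

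The translocon genes were close to level. None of the 4 was past 1.5-fold, and their median log2 difference was -0.09. Sec61a1, the channel subunit, was at 202 and 184 CPM, 1.09-fold lower (1.04 to 1.15). Sec61b, at 53.6 and 55.1 CPM, and Ssr1 of the translocon-associated protein complex, at 154 and 149 CPM, both had intervals that held 1. Sec61g, with 435 and 440 counts, was 1.32-fold lower (1.15 to 1.51). A processed pseudogene of Sec61g, Gm10177, matches it at 100% identity over 420 bases and held 161 and 177 counts, so reads could have been split between them.

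Among the UPR signal genes, the sensors and the effector parted. Ern1 encodes IRE1, the kinase and endonuclease that splices Xbp1 mRNA, and had 227 and 422 counts, 1.39-fold higher (1.18 to 1.64). Atf6 and Atf6b encode membrane-bound transcription factors released by cleavage in the Golgi. Atf6 was 1.28-fold higher (1.18 to 1.40), from 57.3 to 73.4 CPM, and Atf6b 1.34-fold higher (1.24 to 1.44), from 72.6 to 96.9 CPM. Xbp1, the substrate of IRE1 (chromosome 11, 5520659 to 5525893, plus strand), went the other way. It had 2432 and 1777 counts, or 166 and 90.7 CPM, 1.83-fold lower (1.72 to 1.94). Gene counts do not separate spliced from unspliced Xbp1, so they do not measure IRE1 activity. Wfs1, the wolframin gene, had 65 and 71 counts, and its interval held 1.

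Set in order of level per length of exon, the members kept much of their order. Calr stood first in both libraries, at 224 and 170 RPKM. P4hb, Hspa5, Pdia3 and Hsp90b1 followed in complete medium, at 197, 187, 160 and 143 RPKM, and Hspa5, P4hb, Canx and Pdia3 without methionine, at 149, 136, 98.9 and 86.6 RPKM. Sdf2l1 moved from place 8 to place 22 of 38, at 79.3 and 23.2 RPKM, and Derl1 from place 18 to place 8, reaching 52.2 RPKM. Ern1, Ero1lb, Wfs1 and Derl3 held the last 4 places in both libraries, at 1.89 RPKM or less in complete medium. Lengths are those of all annotated exons joined, so the level of a gene that uses few of its exons is understated.

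**Figure D3:**
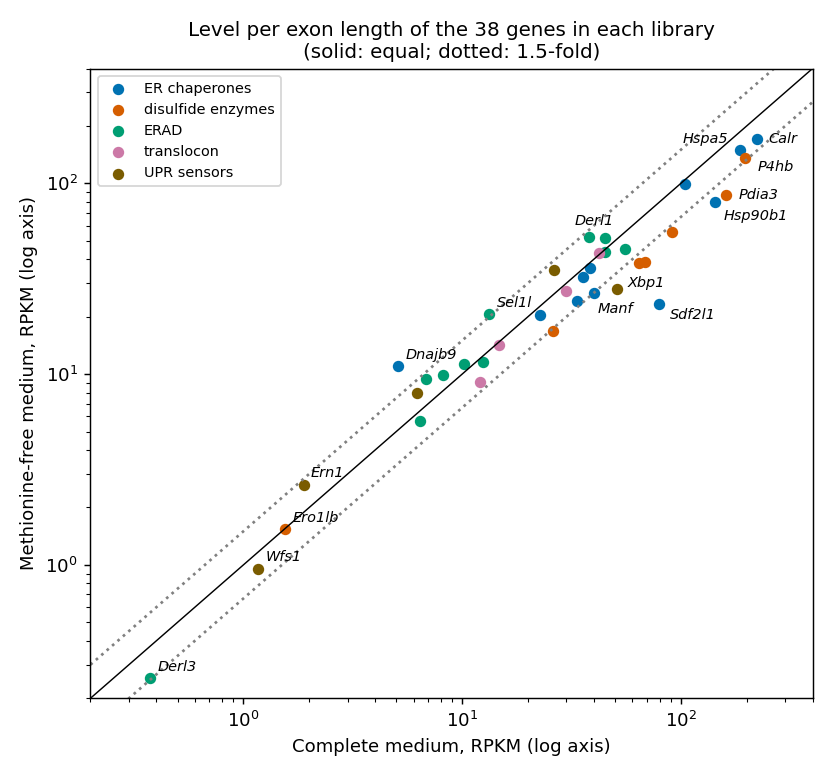
Level of each of the 38 genes in RPKM in complete medium (horizontal) and methionine-free medium (vertical), both on log axes, coloured by role; the solid line marks equal levels and the dotted lines 1.5-fold. The abundant chaperone and disulfide genes at the upper right lie on or under the solid line, Sdf2l1 falls farthest below it (79.3 and 23.2 RPKM), and Dnajb9 farthest above (5.10 and 11.1 RPKM).

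Grouped by textbook UPR targets, the branches had these values. Of 11 ATF6 target examples, among them Hspa5, Hsp90b1, Pdia4 and Hyou1, 4 were at least 1.5-fold lower and 1 higher, with a median log2 difference of -0.40. Of 10 XBP1 target examples, among them Dnajb9, Edem1, Sec61a1 and Ssr1, none was lower and 1 was higher, with a median of -0.09. The shares of all genes tested were 18.0% lower and 15.7% higher. Both lists are made of the 38 genes, and many targets answer to both factors. The difference between the lists was not tested.

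The third branch, PERK, reaches transcription through ATF4 and CHOP, which other stresses also use, amino acid lack among them. Of 15 measured genes of the PERK branch and UPR control, 4 were at least 1.5-fold higher and none lower, with a median log2 difference of 0.32. The 4 are 26.7% of the list, beside 15.7% of all genes tested. Ddit3, which encodes CHOP, was 5.80-fold higher (5.17 to 6.52), from 22.6 to 131 CPM. Ppp1r15a, which encodes the GADD34 phosphatase subunit, was 3.20-fold higher (2.95 to 3.48) and Trib3, a pseudokinase gene induced by CHOP, 2.40-fold higher (2.25 to 2.55). The fourth was Atf4, named after its value was seen, at 448 and 796 CPM. Eif2ak3, the gene of PERK, was at 38.2 and 43.5 CPM. So the ATF4 and CHOP genes were higher in the library in which Hspa5 and Xbp1 were lower.

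The ERAD partner genes lay on the same side as Sel1l and Derl1. Of 18, 17 had a ratio above 1 and 3 were at least 1.5-fold higher, none lower, with a median log2 difference of 0.42. Over all genes tested, 52.4% had a ratio above 1. The shares past 1.5-fold were 16.7% higher and 0% lower, beside 15.7% and 18.0% of all genes tested. The share called higher was thus near that of all genes. Rnf5, a membrane ubiquitin ligase gene, was 2.21-fold higher (1.88 to 2.61), from 13.9 to 30.7 CPM. The ubiquitin-conjugating enzyme gene Ube2g2 was 1.93-fold higher (1.78 to 2.10) and the ligase gene Rnf185 1.78-fold higher (1.52 to 2.08). The exception was Ubac2, named after its value was seen, at 65.8 and 50.9 CPM. With the 11 ERAD members, 23 of 29 genes had a ratio above 1 and 4, or 13.8%, were at least 1.5-fold higher. Most were therefore above 1 but short of 1.5-fold.

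The genes that bring proteins in and add sugars were near level. Of 18 signal peptide and translocation partners, 1 (5.56%) was at least 1.5-fold lower and none higher, with a median log2 difference of -0.03. Over all genes tested, 18.0% were lower and 15.7% higher. Spcs3, of the signal peptidase, was 1.58-fold lower (1.505 to 1.65), Sec11c, a catalytic subunit gene, 1.34-fold lower (1.21 to 1.49) and Sec62, of the post-translational translocon, 1.45-fold higher (1.36 to 1.54). Of 16 N-glycosylation and lectin cycle genes, 1 (6.25%) was lower and none higher, with a median of -0.08. It was Rpn1, an oligosaccharyltransferase subunit gene, 1.69-fold lower (1.61 to 1.77). Ngly1 and Man1b1, which trim sugars of ERAD substrates, were 1.44-fold higher (1.30 to 1.59) and 1.38-fold higher (1.28 to 1.49).

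Of 15 measured other folding enzymes, 2 were at least 1.5-fold lower and 1 higher, with a median log2 difference of -0.08. That is 13.3% and 6.67%, beside 18.0% and 15.7% of all genes tested. Fkbp2, an ER prolyl isomerase gene, was 2.21-fold lower (1.85 to 2.64), with counts of 341 and 206. Sdf2, the paralog of Sdf2l1, was 1.76-fold higher (1.57 to 1.97), from 30.4 to 53.5 CPM, and Dnajc1 1.39-fold higher (1.26 to 1.53). The paralogs Sdf2 and Sdf2l1 thus lay on opposite sides, and per length of exon Sdf2 stood at 20.0 and 35.3 RPKM, against 79.3 and 23.2 RPKM for Sdf2l1.

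**Figure D4:**
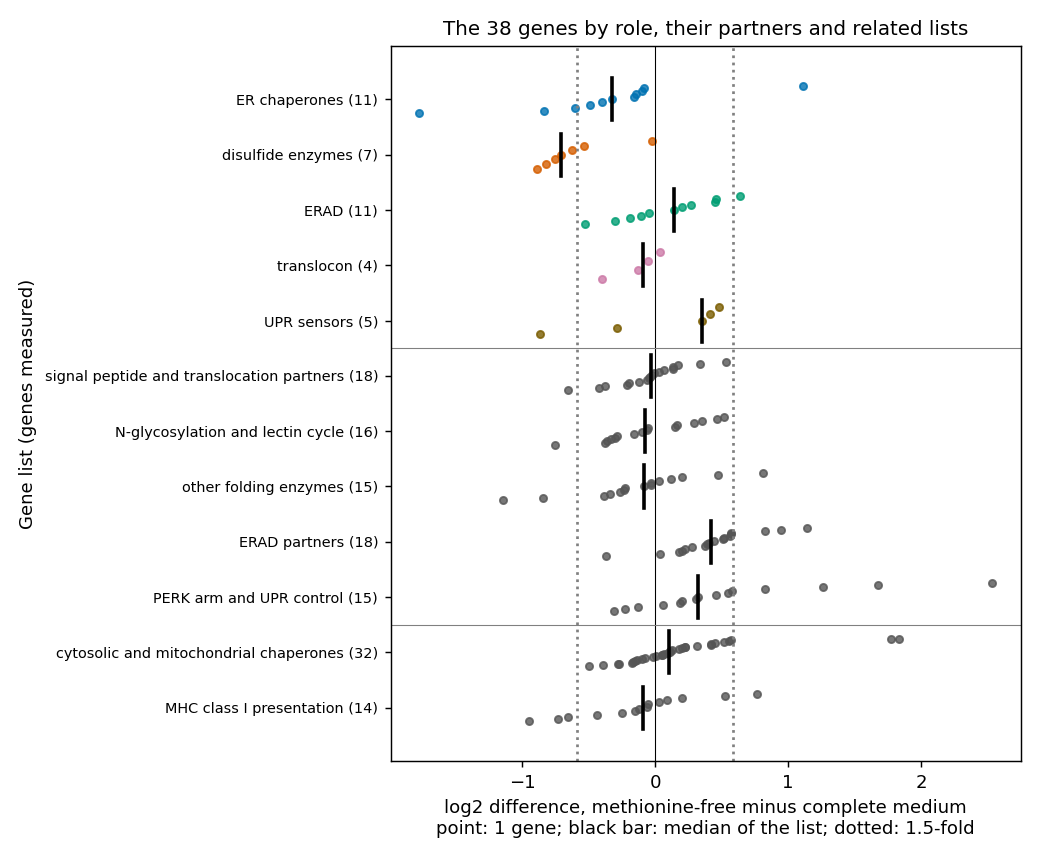
Difference in log2, methionine-free minus complete medium, for each measured gene (points) of the 5 roles (coloured), of 5 lists of partner genes and of 2 related lists (grey); black bars are list medians and dotted lines mark 1.5-fold. Disulfide enzymes have the lowest median (-0.71) and ERAD partners the highest (0.42).

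As a list, chaperones of other compartments did not lie lower as the ER set did, though some of them did. Of 32 measured cytosolic and mitochondrial chaperone genes, none was at least 1.5-fold lower and 2 were higher, with a median log2 difference of 0.10. That is 0% lower and 6.25% higher, beside 18.0% and 15.7% of all genes tested, so both shares lay below those of all genes. A ratio above 1 was seen for 21 of the 32 and below 1 for 11, with 10 intervals wholly below 1. Hsp90aa1, named after its value was seen, was 1.41-fold lower (1.39 to 1.44), against 1.25-fold for Hspa5. Of the genes past 1.5-fold, both were higher. These 2 are the stress-inducible Hsp70 genes Hspa1a and Hspa1b, 3.59-fold higher (2.59 to 5.09) and 3.44-fold higher (2.78 to 4.29). They are near-identical copies, so the split between them is uncertain. Hspa9, the mitochondrial Hsp70 gene, was at 1129 and 1678 CPM. In the MHC class I list, whose assembly uses calreticulin and ERp57, 3 of 14 genes were at least 1.5-fold lower and 1 higher. That is 21.4% and 7.14%, beside 18.0% and 15.7% of all genes tested. Psmb10 and Psmb8, of the immunoproteasome, were 1.93-fold lower (1.75 to 2.12) and 1.66-fold lower (1.59 to 1.73). H2-K1, a class I heavy chain gene, was 1.70-fold higher (1.68 to 1.73), while Calr and Pdia3 were lower. Tapbp, which encodes the ERp57 partner tapasin and was named after its value was seen, was at 258 and 237 CPM. With 1 library per medium, differences between these lists could not be tested.

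Other features of the libraries moved with these genes. Plasma cells carry very high levels of ER chaperones. The 8 plasma cell markers summed to 203 and 125 CPM, 1.63-fold lower (1.54 to 1.72). Nearly all of it was Ighm. Without Ighm the sum was 7.29 and 4.39 CPM, 1.66-fold lower (1.24 to 2.23). By comparison, the disulfide enzymes summed to 2080 and 1276 CPM. Sdc1, with 32 and 7 counts, was 6.10-fold lower (2.64 to 16.4). Mzb1, with 16 and 3 counts, was 7.12-fold lower (2.04 to 38.1), like Sdc1 on the same side as most ER chaperones. Jchain lay on the other side, at 0 and 11 counts, with an interval wholly above a ratio of 1. Mzb1 and Jchain fell short of the minimum mean of 10 counts. Igkc had 59 and 65 counts, and its interval held 1. Tnfrsf17, Ighg1 and Igha were at 0 counts in both libraries. All 7 B cell markers had counts, and they summed to 13.8 and 7.71 CPM. The 10 myeloid and dendritic markers summed to 85.5 and 114 CPM. Of the 6 with a mean of at least 10 counts, 5 had a ratio above 1, but only 3 intervals lay wholly above 1. The dendritic markers Flt3, with 33 and 149 counts, and Zbtb46, with 77 and 359 counts, were both over 2-fold higher. Cst3 was 1.19-fold higher (1.09 to 1.31). The intervals of Cd68, Itgax, with 8 and 16 counts, and H2-Ab1, at a ratio of 0.988 (0.855 to 1.14), held 1. Csf1r was at 6 and 0 counts. Markers of other cells summed to 2.25 and 2.35 CPM. The cell division check list was 19.5-fold lower in sum (18.7 to 20.5). The part of these cells and of cell division in the ER gene differences was not tested.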

How the data were processed

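RNA was measured in 2 libraries of cultured CD8+ T cells, 1 per medium. The authors deposited raw counts per Ensembl gene, whole numbers with no scaling. The submitters' processing notes name mm10. How reads were aligned, counted and assigned to strands: not given in the sources used here. Columns were matched to samples by titles and descriptions. Symbols, exons and coordinates (1-based, whole gene) came from GENCODE M21 on GRCm38, the assembly of mm10; 54495 identifiers matched and 37 did not.

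Counts were scaled by TMM (edgeR 4.0.16, R 4.3.3; factors 1.003 and 0.997). Log2 differences used a prior count of 0.5, and genes needed a mean of at least 10 counts, which left 13041. Folds carry no prior count. Intervals are Clopper-Pearson intervals of the 2 counts (scipy 1.17.1, Python 3.11.15), valid for counting error only, since reads without molecular identifiers are not independent molecules. A single count was worth 0.0681 and 0.0510 CPM. The functions were tested on simulated data. The members and lists were chosen with earlier results of these data known. All members were to be named, with the 3 largest differences of each partner and related list at a mean of at least 50 counts; of related lists these are Psmb10, H2-K1, Psmb8, Hspa1a, Hspa1b and Hspa9. Similar transcripts were searched with blastn. Protein features were planned and not analysed here. Alternatives were other scalings (library totals, DESeq2 1.42.0, upper quartile), other minimum counts, a prior count of 2 and a 2-fold threshold.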

Additional observations from a re-analysis of the deposited data

How the results depend on the processing

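Library totals, DESeq2 size factors, upper quartile factors and a prior count of 2 changed the direction or the 1.5-fold call of none of the 38 members; the scalings moved a member by at most 0.012 on the log2 scale and the prior count of 2 by at most 0.063. Dropping the minimum gave 4898 higher and 6312 lower genes at 1.5-fold; a minimum mean of 100 counts gave 1163 and 1300, or 12.2% and 13.7% of 9522 genes, beside 2 and 9 of the 36 members left. A 2-fold threshold left 756 higher and 1211 lower genes, and 1 member was higher and 1 lower, so the 5 disulfide enzymes called at 1.5-fold were not called. The intervals of Manf, Txndc5 and Sel1l, which were called, and of Creld2, Sec61g, Ern1, Erlec1, Derl3 and Wfs1, which were not, hold 1.5-fold, so counting error alone could remove or add calls. No paired analysis was possible because each medium has 1 library and the labels give no shared replicate numbers.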

Other observations

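Further ER gene lists were added after the members' values were seen. Over all genes tested, 18.0% were at least 1.5-fold lower and 15.7% higher. In the ER calcium list, 3 of 9 genes (33.3%) were at least 1.5-fold lower and 1 (11.1%) higher, with a median log2 difference of -0.35. The calcium release channel genes Itpr3 and Itpr2 were 2.67-fold lower (2.47 to 2.89) and 2.34-fold lower (2.13 to 2.57), while Itpr1 was at 74.2 and 72.1 CPM. Atp2a3, a calcium pump gene of blood cells, was 1.64-fold lower (1.53 to 1.76), and Orai1, the plasma membrane channel opened by STIM proteins, 1.62-fold higher (1.46 to 1.79). Of 18 COPII coat and cargo receptor genes, 1 was higher and 1 lower, each 5.56%. Mcfd2, a cargo receptor subunit gene, was 1.80-fold higher (1.62 to 2.01) and the coat gene Sec24d 1.57-fold lower (1.24 to 1.98). None of the 8 COPI coat genes was past 1.5-fold. Of 15 membrane insertion genes, 1 (6.67%) was higher (Emc7), and of 8 ufmylation genes 1 (12.5%) was lower (Cdk5rap3). Of 5 measured ER-phagy receptor genes, 1 (20%) was higher (Calcoco1, 1.94-fold, 1.64 to 2.32).

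Across the 38 members, the log2 difference had a Spearman correlation of -0.46 with the mean level in RPKM on the log2 scale, so the more abundant members lay lower; across 13034 tested genes it was 0.01. These are descriptions across genes of the same libraries, and genes are not independent replicates.

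Of the 27 genes with ERSE that are not members, 7 were measured. Of these, 5 had a ratio below 1 and 2 were at least 1.5-fold lower, with a median log2 difference of -0.38. Over all genes tested, 47.6% had a ratio below 1 and 18.0% were at least 1.5-fold lower. Acacb and Xlr3a were the 2 lower genes, with 27 and 22 counts and 21 and 14 counts. With 7 genes measured and both called genes at low counts, no pattern can be read from them.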
